A study of Mus musculus with 6 samples.

Results

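The S phase and DNA replication genes described here are 37 genes that load and open the replicative helicase, copy DNA, supply nucleotides, rebuild chromatin behind the fork and drive entry into S phase. They were chosen by name, and all 37 were among the 18543 genes of the deposited count table. All 37 also passed the filter on low counts that left 14052 genes for testing. The cells were group 2 innate lymphoid cells (ILC2s), lymphocytes without rearranged antigen receptors that answer alarmins such as IL-33, sorted from mouse lung. Each of 6 RNA-seq libraries was made from 10 ng of RNA. The tested libraries, labelled KO 1, KO 2 and KO 3, came from Atg5-/- C57BL/6 mice. Atg5 is a protein needed to extend the autophagosome membrane. The comparison libraries, labelled WT 1, WT 2 and WT 3, came from wild-type C57BL/6 mice. Mice of both groups were 8 weeks old and had received 0.5 µg of recombinant IL-33 into the nose on each of 3 days, and cells were taken on day 4, so no library shows cells without IL-33. The sources used here give neither the deleted exons nor a promoter or cell type that restricts the deletion, and do not say whether each library is a separate mouse. P-values therefore measure the spread between libraries only, and part of it may be technical.

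A cell licenses its origins in G1 by loading the MCM helicase with the help of Cdc6 and Cdt1, and fires them in S phase when Cdc45 and GINS join the MCM ring. Primase and polymerase alpha then start each strand, the clamp Pcna holds the later polymerases on DNA, and Rpa coats the single strands. E2F transcription factors, released from the retinoblastoma protein by cyclin kinases, switch on most of these genes in late G1. Lung ILC2s are known to divide after IL-33, so these genes are commonly used to read how many of them are cycling. In such bulk samples fewer cells in S phase and less RNA of these genes per cell cannot be told apart.

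E2F-type letters were searched for in the promoters. The genes were chosen as replication and E2F genes, so a share above that of all genes was likely beforehand. A RefSeq promoter window (GRCm38.p6, 250 bases before to 50 bases after the start) was found for 29 of the 37 genes, and 11 of the 29 held an E2F-type motif. The letters searched were TTTCCCGC, TTTCGCGC, TTTGCCGC and TTTGGCGC on both strands, and matches on opposite strands can overlap. The share was 37.9% (95% Wilson interval 22.7% to 56.0%), against 4.76% of the 9648 tested genes with a window and 2.6% of all 27025 genes in the table. Among 74 other replication genes with a window it was 27.0% (18.2% to 38.1%), an interval that overlaps that of the 37 genes. With TTTCCCGC and TTTCGCGC alone, 8 of the 29 genes held a match, or 27.6%, against 3.11% of tested genes. The 11 genes were Mcm3, Mcm5, Mcm6, Mcm7, Cdc6, Cdt1, Dtl, Pola1, Clspn, Uhrf1 and Hells. A match is a description of the letters and does not show that a factor binds there.

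The 4 promoters below are those of Mcm6 (chr1:128359656-128359955, minus strand) and Mcm5 (chr8:75109259-75109558, plus strand), which hold overlapping matches, and of Rrm2 (chr12:24708004-24708303, plus strand) and Tk1 (chr11:117825965-117826264, minus strand), which hold none. They are shown as examples of windows with and without a match among genes described below. In examples named after their values were seen, a match did not go with 1 order of libraries. Mcm2, Pcna, Prim1, Tyms and Rpa2, which like Mcm5 and Mcm6 were higher in KO 1 and KO 2 than in WT 1 and WT 2, hold none. Clspn, which like Rrm2 was higher in WT 1 and WT 2, holds one, but Tk1, Ccne1 and E2f8, also higher there, hold none. A link between match and order was not tested. Each promoter is printed in the direction of transcription, with matches in capitals.
Mcm6: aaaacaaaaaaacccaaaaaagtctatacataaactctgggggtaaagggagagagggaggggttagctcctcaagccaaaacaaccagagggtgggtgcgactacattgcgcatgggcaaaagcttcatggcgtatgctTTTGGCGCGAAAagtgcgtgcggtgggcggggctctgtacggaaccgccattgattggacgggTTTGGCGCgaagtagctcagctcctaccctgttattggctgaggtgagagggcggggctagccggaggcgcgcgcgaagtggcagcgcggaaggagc
Mcm5: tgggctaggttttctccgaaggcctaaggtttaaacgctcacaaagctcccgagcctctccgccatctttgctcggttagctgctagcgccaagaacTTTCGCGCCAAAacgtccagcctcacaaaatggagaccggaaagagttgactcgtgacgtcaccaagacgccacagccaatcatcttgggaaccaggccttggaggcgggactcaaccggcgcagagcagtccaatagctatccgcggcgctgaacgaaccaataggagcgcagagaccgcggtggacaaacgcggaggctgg
Rrm2: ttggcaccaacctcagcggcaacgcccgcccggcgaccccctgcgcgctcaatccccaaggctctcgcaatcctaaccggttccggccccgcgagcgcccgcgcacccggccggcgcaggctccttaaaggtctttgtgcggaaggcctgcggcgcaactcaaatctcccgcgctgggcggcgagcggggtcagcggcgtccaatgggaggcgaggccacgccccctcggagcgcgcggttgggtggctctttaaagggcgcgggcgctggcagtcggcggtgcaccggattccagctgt
Tk1: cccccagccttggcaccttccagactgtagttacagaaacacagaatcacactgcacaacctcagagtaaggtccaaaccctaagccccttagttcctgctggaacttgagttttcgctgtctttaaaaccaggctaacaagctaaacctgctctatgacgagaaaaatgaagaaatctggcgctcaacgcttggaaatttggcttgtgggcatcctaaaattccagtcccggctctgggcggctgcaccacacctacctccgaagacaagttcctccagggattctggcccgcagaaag
In the Mcm6 window the matches begin at positions -110, -106 and -47 relative to the start, the first base of the transcript being 0. In the Mcm5 window they begin at -153 and -149. The Rrm2 and Tk1 windows contain none of these letters in either direction, from which nothing follows about E2F at those genes.

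Libraries were compared before the genes were tested. Estimated counts summed to 28827545, 33662979 and 31754420 in KO 1, KO 2 and KO 3, against 30094216, 30761987 and 30111316 in WT 1, WT 2 and WT 3. At that depth 3 counts correspond to 0.0892 to 0.104 CPM, the count scaled to the library size. Atg5 itself (chr10, 44268358 to 44364291) went against 2 labels: the transcript reached 23.0, 25.6 and 52.2 CPM in KO 1, KO 2 and KO 3, against 66.3, 71.8 and 21.8 CPM in WT 1, WT 2 and WT 3. In Atg5 the library labelled WT 3 lay below every KO library. The library labelled KO 3 lay closer in Atg5 to WT 1 and WT 2 than to the other KO libraries. Over all tested genes, WT 3 correlated more closely with KO 1 (r = 0.991 of log2 CPM across genes) than with WT 1 or WT 2 (r = 0.946 and 0.948). KO 3 lay nearer to KO 1 and KO 2 than to WT 1 and WT 2 over all tested genes, but about as near to WT 3. Its r was 0.979, 0.98 and 0.979 with KO 1, KO 2 and WT 3, against 0.933 and 0.935 with WT 1 and WT 2. KO 1 and KO 2 correlated with each other at r = 0.99, so KO 3 stood somewhat apart from both. The 10 fixed ILC2 markers were all detected, with summed levels of 5541 to 5722 CPM in KO libraries and 5815 to 9004 CPM in WT libraries. Summed T cell markers (6 of 7 in the table) reached 23.9 to 25.3 CPM in KO libraries and 22.7 to 41.6 CPM in WT libraries. The level KO sums hide opposite movements: Cd3g, the largest part, was at 18.3, 18.8 and 11.4 CPM in KO 1, KO 2 and KO 3. Cd5 was at 0.797, 0.803 and 4.05 CPM and Cd4 at 0.935, 1.01 and 2.9 CPM in KO 1, KO 2 and KO 3. Of the KO libraries KO 3 was also highest in Cd3e and Cd8b1, but not in Cd3d. Macrophage and monocyte markers (7 of 8) reached 2.68 to 5.92 CPM in KO libraries and 4.51 to 12.9 CPM in WT libraries. Epithelial, endothelial and stromal markers (5 of 9) summed to 119.8, 121 and 140 CPM in KO 1, KO 2 and KO 3, against 68.6, 60.9 and 108 CPM in WT 1, WT 2 and WT 3. Of these Pecam1, the adhesion molecule CD31, was at 107, 92.0 and 131 CPM in KO 1, KO 2 and KO 3, against 10.4, 8.54 and 93.1 CPM in WT 1, WT 2 and WT 3, and so was high in the same libraries as many replication genes and also in KO 3. Epcam, an epithelial adhesion molecule, was at 12.6, 13.7 and 8.90 CPM in KO 1, KO 2 and KO 3, against 57.4, 52.3 and 14.3 CPM in WT 1, WT 2 and WT 3. The sums of B cell, NK cell, granulocyte and erythroid markers reached at most 14.3 CPM in KO libraries and 19.5 CPM in WT libraries. The part of other cells in the results below was not tested. Knockout and wild type below follow the labels, and the tests are given with all 6 libraries first and then without WT 3 or without both libraries numbered 3.

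With all 6 libraries, none of the 37 genes passed the test of knockout against wild type. The smallest adjusted p among them was 0.345, for Rrm2 (edgeR quasi-likelihood test, Benjamini-Hochberg adjustment over 14052 genes), and the share of all tested genes called was 0%. At an unadjusted p under 0.05, only Rrm2 passed among the 37 genes, against 2026 of all tested genes, or 14.4%. DESeq2 called none of the 37 genes and 323 of all tested genes, or 2.3% (0.107% higher and 2.19% lower in knockout), and limma-voom called none of either. The median log2 fold change of the 37 genes was -0.09, with 13 above and 24 below 0, and that of all tested genes was 0.02. Standard errors of the 37 log2 fold changes ran between 0.16 and 0.46.

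What varied was the level between libraries of 1 label. The library labelled KO 3 had the lowest value of all 6 for 35 of the 37 genes, against 20.5% of all tested genes. The other 2 genes, Ung and Nasp, were lowest in WT 1. Set against the mean of KO 1 and KO 2, KO 3 held a median of 55.2% of their transcripts, with quartiles of 49.1% and 64.3%, where all tested genes had a median of 99.5%. Every one of the 37 genes was under 100% in this ratio, from Tk1 at 30.5% to Cdt1 at 72.7%. On the wild-type side, the library labelled WT 3 held a median of 124% of the mean of WT 1 and WT 2, with 5 genes under 100%, and all tested genes had a median of 99.2%. The highest value of the 6 fell in WT 3 for 16 genes, in KO 1 for 10, in KO 2 for 5, in WT 2 for 4, in WT 1 for 2 and in KO 3 for none. These ratios compare single libraries and have no test.

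**Figure D1:**
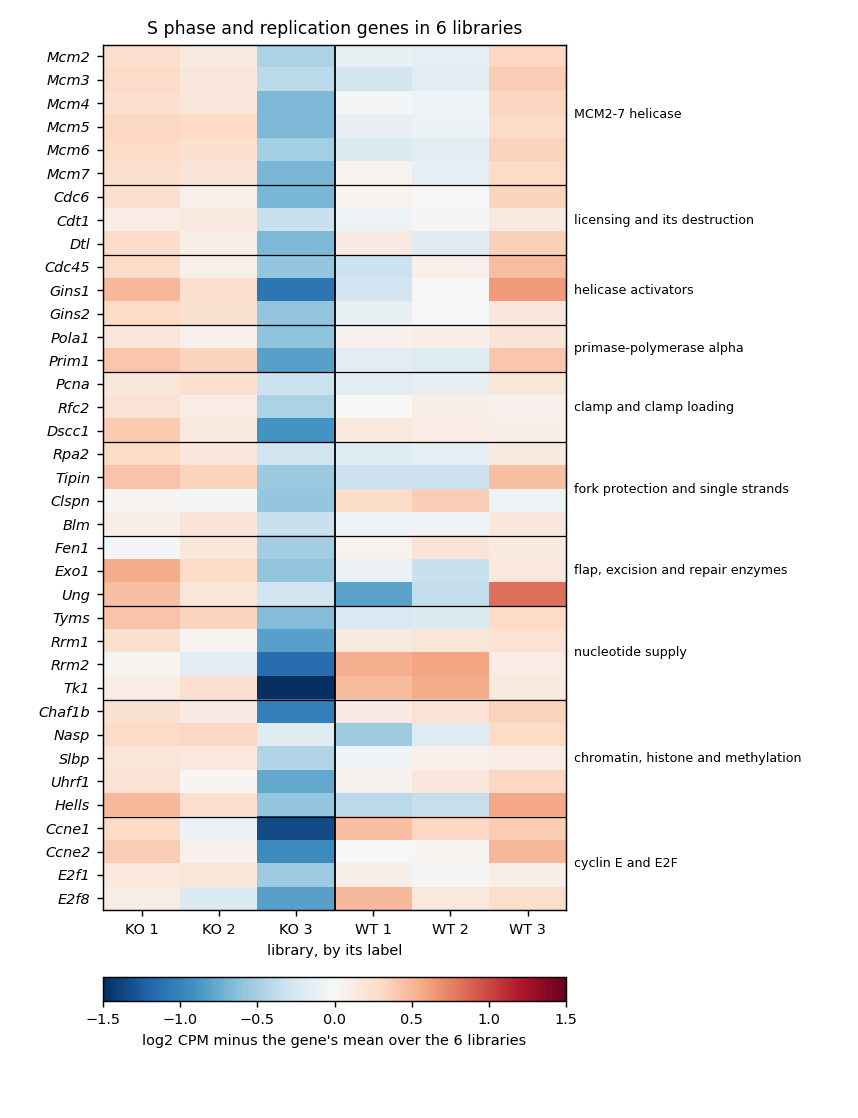
Log2 CPM of each of the 37 genes minus that gene's mean over the 6 libraries, with genes in rows by role and libraries in columns, KO 1 to KO 3 left of WT 1 to WT 3. The KO 3 column is the low one in nearly every row (median -0.59), while WT 3 (median 0.30), KO 1 (0.27) and KO 2 (0.17) are the high ones and WT 1 (-0.07) and WT 2 (0.00) lie between.

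The MCM subunits kept nearly the same proportions to each other in every library. These 6 proteins, Mcm2 to Mcm7, form the ring that unwinds DNA at the fork. Summed over the subunits per kilobase of exon, the complex reached 659.9, 624 and 370.4 CPM per kb in KO 1, KO 2 and KO 3, against 493, 495 and 681 CPM per kb in WT 1, WT 2 and WT 3. The spread within each label thus exceeded the difference between labels. The make-up of the sum moved little: over the 6 libraries Mcm3 gave 19.8% to 24.1% of it, Mcm6 17.8% to 19.3%, Mcm2 16.9% to 18.5%, Mcm5 15.3% to 17.8%, Mcm4 11.5% to 13.7% and Mcm7 11.2% to 14.1%.

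Mcm6, one of the 2 most abundant subunits per kilobase, was at 550.1, 527 and 314 CPM in KO 1, KO 2 and KO 3, against 384, 399 and 569 CPM in WT 1, WT 2 and WT 3. Its highest value was in the library labelled WT 3 and its lowest in the library labelled KO 3, while KO 1 and KO 2 both lay above WT 1 and WT 2. Its log2 fold change was 0.04 with a standard error of 0.27 (edgeR adjusted p = 0.942). Mcm3 was at 438, 403 and 271 CPM in KO 1, KO 2 and KO 3, against 296, 319.6 and 466 CPM in WT 1, WT 2 and WT 3. It showed the same order of libraries as Mcm6, with a log2 fold change of 0.04 ± 0.26 (SE; edgeR adjusted p = 0.94). Mcm2, Mcm4, Mcm5 and Mcm7 had log2 fold changes of -0.12 to 0.01, the sign of Mcm5 depending on the scaling, and each was lowest in KO 3.

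Licensing factors and the protein that removes one of them came next. Cdc6, the ATPase that loads the MCM ring, was at 106, 94.4 and 55.7 CPM in KO 1, KO 2 and KO 3, against 92.7, 90.3 and 113 CPM in WT 1, WT 2 and WT 3. Cdt1, its partner in loading, had the smallest drop in KO 3 of the 37 genes and was at 84.3, 86.3 and 62.0 CPM in KO 1, KO 2 and KO 3, against 74.0, 79.3 and 85.5 CPM in WT 1, WT 2 and WT 3. Both groups overlapped for each gene, with log2 fold changes of -0.21 ± 0.25 for Cdc6 and -0.04 ± 0.16 for Cdt1. Dtl, which marks Cdt1 for destruction in S phase, averaged 55.3 ± 17.5 CPM in knockout and 62.1 ± 11.5 CPM in wild type (SD, n = 3 each).

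Among the helicase activators, Cdc45 was at 83.3, 72.1 and 45.6 CPM in KO 1, KO 2 and KO 3, against 54.6, 72.3 and 94.3 CPM in WT 1, WT 2 and WT 3. Gins2, a GINS subunit, was at 60.1, 57.1 and 32.3 CPM in KO 1, KO 2 and KO 3, against 45.0, 48.8 and 54.9 CPM in WT 1, WT 2 and WT 3. Neither gene separated the labels. Gins1, another GINS subunit, was the scarcer one, with 12.1 ± 5.78 CPM in knockout and 13.3 ± 4.55 CPM in wild type (SD, n = 3 each), and followed the median of the other genes most closely over the 6 libraries, together with Mcm4 (r = 0.99 each, a description).

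Primase and polymerase alpha begin each new strand. Prim1, the catalytic primase subunit, was at 90.2, 85.5 and 38.4 CPM in KO 1, KO 2 and KO 3, against 60.7, 59.0 and 90.1 CPM in WT 1, WT 2 and WT 3. KO 1, KO 2 and WT 3 stood together well above the other 3 libraries. Pola1, the catalytic subunit of polymerase alpha, was at 41.9, 39.3 and 24.5 CPM in KO 1, KO 2 and KO 3, against 38.9, 39.9 and 42.6 CPM in WT 1, WT 2 and WT 3, so that only KO 3 stood apart.

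Pcna, the sliding clamp, was the second most abundant of the 37 genes per kilobase, at a mean of 159 CPM per kb. It was at 269.8, 283 and 192 CPM in KO 1, KO 2 and KO 3, against 215, 220.2 and 271 CPM in WT 1, WT 2 and WT 3. Rfc2, a subunit of the complex that loads the clamp, was at 144, 134 and 88.9 CPM in KO 1, KO 2 and KO 3, against 123, 131 and 129 CPM in WT 1, WT 2 and WT 3. Rfc2 lay close together in wild type, whereas Pcna was higher in WT 3 than in WT 1 and WT 2. Dscc1, part of an alternative loader, averaged 13.9 ± 5.69 CPM in knockout and 15.4 ± 0.204 CPM in wild type (SD, n = 3 each).

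Fork protection genes differed in the order of their libraries. Tipin, which with Timeless stabilises a stalled fork, was at 185, 174 and 94.1 CPM in KO 1, KO 2 and KO 3, against 110.2, 110.0 and 188 CPM in WT 1, WT 2 and WT 3. Its libraries split into a high set of KO 1, KO 2 and WT 3 and a low set of the rest, and the log2 fold change was 0.15 ± 0.32 (SE; edgeR adjusted p = 0.811). Rpa2, a subunit of the single-strand binding protein, was at 108, 98.8 and 71.6 CPM in KO 1, KO 2 and KO 3, against 77.3, 80.1 and 97.5 CPM in WT 1, WT 2 and WT 3. Clspn, the adaptor that passes the stalled-fork signal to Chk1, was at 17.4, 16.7 and 11.4 CPM in KO 1, KO 2 and KO 3, against 20.6, 22.0 and 16.1 CPM in WT 1, WT 2 and WT 3. Clspn, like Tipin, was lowest in KO 3, but its WT 1 and WT 2 lay highest and WT 3 under KO 1 and KO 2, and of the 37 genes it followed the median of the others least (r = 0.56). Blm, a helicase that resolves recombination intermediates, averaged 53.2 ± 9.89 CPM in knockout and 53.8 ± 5.04 CPM in wild type (SD, n = 3 each).

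In the flap and repair group, Fen1, the nuclease that trims Okazaki fragments, was at 200.4, 229.6 and 142 CPM in KO 1, KO 2 and KO 3, against 211, 232 and 223 CPM in WT 1, WT 2 and WT 3. Exo1, an exonuclease of mismatch repair, was at 52.2, 43.9 and 23.6 CPM in KO 1, KO 2 and KO 3, against 33.6, 28.3 and 39.8 CPM in WT 1, WT 2 and WT 3. Exo1 had one of the 2 largest positive log2 fold changes of the 37 genes, 0.24 ± 0.30 (SE), which is smaller than its error. Ung, which removes uracil from DNA, lay between 5.90 and 9.87 CPM in knockout and between 4.13 and 12.8 CPM in wild type, the highest value being that of WT 3.

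**Figure D2:**
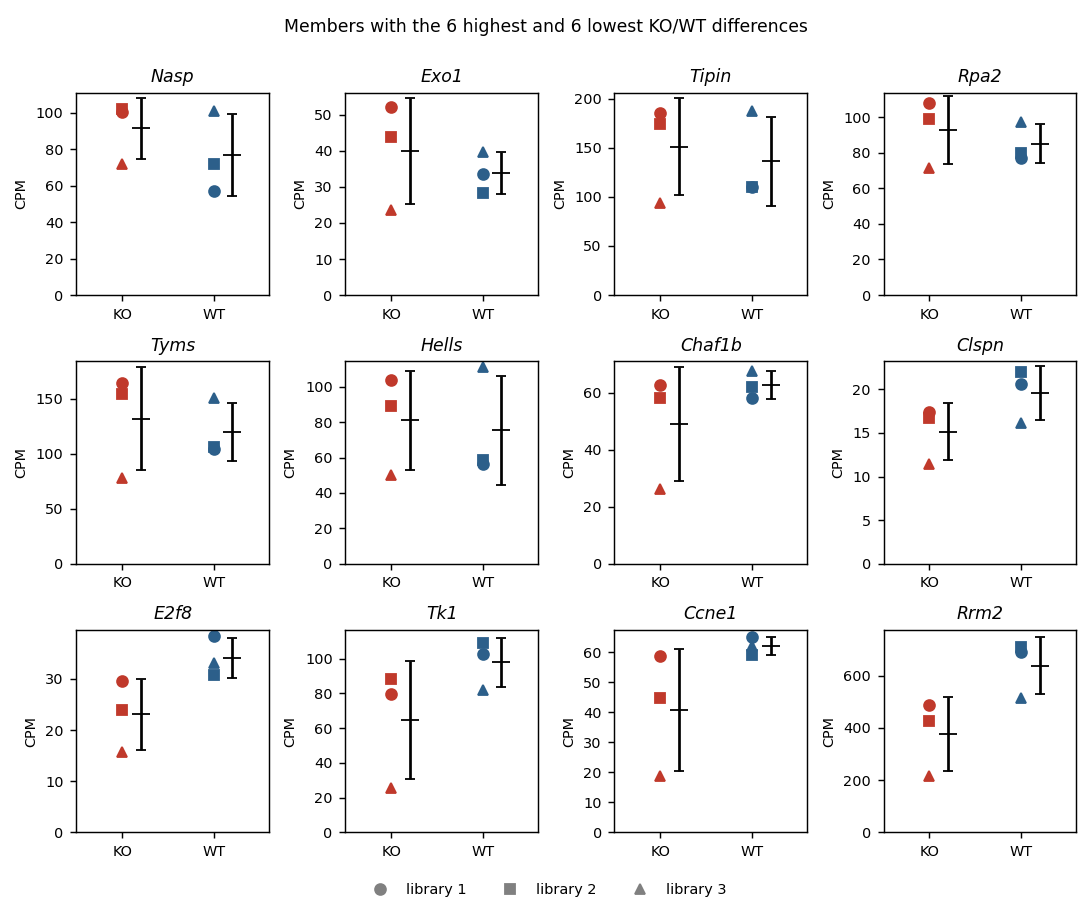
CPM in each library (circle for number 1, square for 2, triangle for 3), with mean and SD of the 3 libraries per label, knockout left of wild type, for the 6 genes with the highest and the 6 with the lowest log2 fold change. In the first 6 genes the triangles cross, low in KO and high in WT. In Rrm2, Tk1, E2f8, Clspn and, narrowly, Ccne1 the circles and squares of WT lie above those of KO.

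The nucleotide suppliers held the largest difference between the labels. Ribonucleotide reductase makes deoxynucleotides from ribonucleotides and is built of the large subunit Rrm1 and the small subunit Rrm2, whose protein is limiting and is destroyed after S phase. Rrm2, the most abundant of the 37 genes per kilobase at a mean of 231 CPM per kb, was at 488, 426 and 215 CPM in KO 1, KO 2 and KO 3, against 692, 711 and 513 CPM in WT 1, WT 2 and WT 3. All 3 knockout libraries lay below all 3 wild-type libraries, although KO 1 lay close to WT 3. Its log2 fold change was -0.76 ± 0.32 (SE), which did not pass over all genes (edgeR adjusted p = 0.345). Rrm1 was at 401, 349 and 193 CPM in KO 1, KO 2 and KO 3, against 374, 385 and 395 CPM in WT 1, WT 2 and WT 3, and overlapped.

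The balance of the 2 subunits differed by library. Per kilobase, the ratio of Rrm2 to Rrm1 was 2.22, 2.23 and 2.03 in KO 1, KO 2 and KO 3, against 3.37, 3.36 and 2.37 in WT 1, WT 2 and WT 3. WT 3 lay nearer to the knockout libraries than to WT 1 and WT 2, and KO 3, low in both transcripts, kept a ratio near that of KO 1 and KO 2. The thymidylate routes were compared in the same way. Tk1, thymidine kinase of the salvage route, was at 79.8, 88.1 and 25.6 CPM in KO 1, KO 2 and KO 3, against 103, 109 and 82.0 CPM in WT 1, WT 2 and WT 3. Tyms, thymidylate synthase of the de novo route, was at 164, 154 and 77.9 CPM in KO 1, KO 2 and KO 3, against 104, 106 and 150.4 CPM in WT 1, WT 2 and WT 3. Their ratio per kilobase, Tk1 over Tyms, was 1.07, 1.26 and 0.723 in KO 1, KO 2 and KO 3, against 2.16, 2.27 and 1.20 in WT 1, WT 2 and WT 3. WT 1 and WT 2 lay highest here too, but KO 3 lay below KO 1 and KO 2, and KO 2 lay above WT 3.

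Chromatin and histone genes were mixed. Slbp, which binds the stem loop of replication-dependent histone mRNAs, was at 299.8, 296 and 194 CPM in KO 1, KO 2 and KO 3, against 253, 279.6 and 286 CPM in WT 1, WT 2 and WT 3. Uhrf1, which brings the maintenance DNA methyltransferase to the fork, was at 237, 207 and 119.6 CPM in KO 1, KO 2 and KO 3, against 214, 229.8 and 253 CPM in WT 1, WT 2 and WT 3. In both genes KO 3 stood below 5 similar libraries. Nasp, a histone chaperone, was at 100.3, 102 and 72.1 CPM in KO 1, KO 2 and KO 3, against 56.8, 72.0 and 101 CPM in WT 1, WT 2 and WT 3, and had the highest log2 fold change of the 37 genes, 0.26 ± 0.25 (SE; edgeR adjusted p = 0.571). Hells, a chromatin remodeller needed for DNA methylation, was at 104, 89.2 and 49.9 CPM in KO 1, KO 2 and KO 3, against 56.2, 58.7 and 111 CPM in WT 1, WT 2 and WT 3. Chaf1b, a subunit of the chromatin assembly factor that binds Pcna, was at 62.7, 58.3 and 26.3 CPM in KO 1, KO 2 and KO 3, against 58.2, 62.2 and 67.8 CPM in WT 1, WT 2 and WT 3. Hells, like Tipin, was high in KO 1, KO 2 and WT 3, while Chaf1b was set apart by KO 3 alone.

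Among the drivers of S phase entry, cyclin E gene Ccne1 was at 58.7, 44.8 and 18.8 CPM in KO 1, KO 2 and KO 3, against 65.1, 59.2 and 62.3 CPM in WT 1, WT 2 and WT 3. Its KO values all lay below its WT values, KO 1 just under WT 2, with a log2 fold change of -0.61 ± 0.37 (SE; edgeR adjusted p = 0.404). E2f8, a repressor of the E2F family, was at 29.6, 23.9 and 15.7 CPM in KO 1, KO 2 and KO 3, against 38.4, 30.7 and 33.1 CPM in WT 1, WT 2 and WT 3, again without overlap. Its log2 fold change was -0.56 ± 0.25 (SE; edgeR adjusted p = 0.348). Rrm2, Ccne1 and E2f8 were the 3 of the 37 genes whose knockout libraries all lay below the wild-type ones, and none had the reverse order, where 9.22% and 9.26% of all tested genes had these orders. E2f1, an activator of the family, was at 75.7, 77.1 and 46.6 CPM in KO 1, KO 2 and KO 3, against 72.0, 68.4 and 72.2 CPM in WT 1, WT 2 and WT 3, and Ccne2, the other cyclin E gene, averaged 44.8 ± 18.9 CPM in knockout and 53.6 ± 10.8 CPM in wild type (SD, n = 3 each).

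Leaving out the libraries that went against their Atg5 level changed which genes passed. Without WT 3 alone, 33.9% of 14743 genes were called by edgeR, but none of the 37 genes, whose smallest adjusted p was 0.0573 for Rrm2. Without KO 3 alone, no gene of 14618 was called, or 0%. At an unadjusted edgeR p under 0.05 only 1 of the 37 passed in that fit, against 987 of the 14052 genes tested with all 6 libraries. Without both libraries numbered 3, leaving KO 1 and KO 2 against WT 1 and WT 2, 18 of the 37 genes passed, or 48.6%, against a background of 45.4% of 14315 genes. That share is near the background. By direction, 16 rose, or 43.2%, beside 22.7% of all genes, and 2 fell, or 5.41%, beside 22.7%. Of the libraries left out, KO 3 was the lowest for 35 of the 37 genes and WT 3 the highest for 16. Leaving out such libraries moves fold changes upward, and the median of the 37 went from -0.09 to 0.23. The shares by direction thus depend on which libraries were left out, and the difference in direction was not tested.

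The genes that rose in KO 1 and KO 2 over WT 1 and WT 2 included all 6 MCM subunits, with log2 fold changes of 0.26 (Mcm4) to 0.47 (Mcm6). Also among them were Gins2, Prim1, Pcna, Rpa2, Tipin, Exo1, Ung, Tyms, Nasp and Hells. Tipin had the smallest adjusted p, 4.75e-05, at a log2 fold change of 0.71 ± 0.08 (SE). Ung, the scarcest of those called, had the largest log2 fold change, 0.90 ± 0.27 (SE; edgeR adjusted p = 0.0211). The 2 genes that fell were Rrm2, by 0.61 on the log2 scale (SE 0.08; edgeR adjusted p = 0.000147), and Tk1, by 0.33 (SE 0.09; edgeR adjusted p = 0.0136). None of the licensing genes Cdc6, Cdt1 and Dtl and none of the cyclin E and E2F genes passed. With 2 libraries a label these calls rest on 4 libraries that already stood far apart over all genes.

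**Figure D3:**
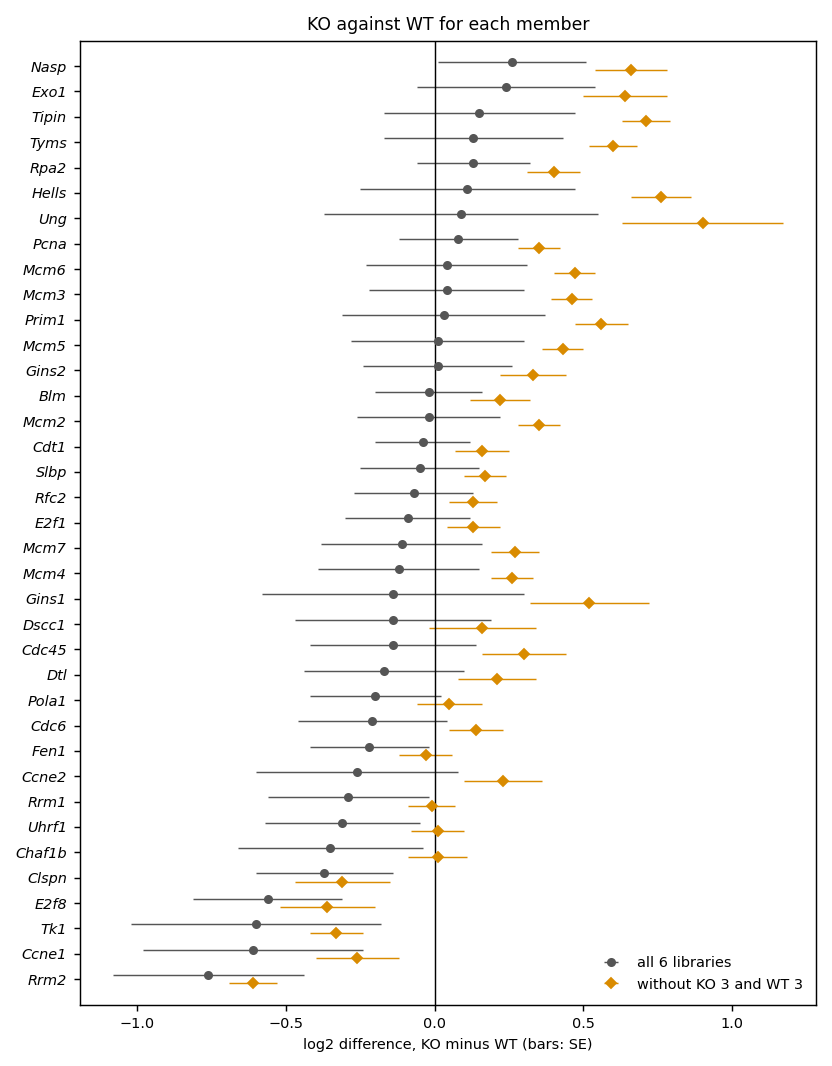
Log2 fold change of knockout over wild type with its standard error for the 37 genes, with all 6 libraries (grey circles) and without KO 3 and WT 3 (orange diamonds). With all libraries the values lie between -0.76 and 0.26 with wide errors; without the 2 libraries numbered 3 every gene but Rrm2, Tk1, E2f8, Clspn, Ccne1, Fen1 and Rrm1 lies above 0.

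Genes beyond the 37 placed this pattern within the pathway. Of 86 other replication genes in 4 lists (origin and licensing, fork and polymerases, nucleotide supply, chromatin assembly), 85 were in the table and none was called with all 6 libraries by edgeR or DESeq2. At an unadjusted p under 0.05, 5 passed with edgeR and 6 with DESeq2, against 2026 and 2689 of all 14052 tested genes. Without WT 3, 13 rose and 6 fell, where 17.7% of all genes rose and 16.1% fell. Without both libraries numbered 3, 30 rose and 7 fell, where 22.7% of all genes rose and as many fell. KO 3 was the lowest library for 53 of the 85 genes, so these counts too depend on which libraries were left out. Their summed level was 7896, 7702 and 5643 CPM in KO 1, KO 2 and KO 3, against 6549, 6779.6 and 7967 CPM in WT 1, WT 2 and WT 3, which is the order of the 37 genes with a smaller drop in KO 3. Of the 4 lists, nucleotide supply did not share it, at 1854, 1942 and 1507 CPM in KO 1, KO 2 and KO 3, against 1196, 1258 and 1829.8 CPM in WT 1, WT 2 and WT 3. In that list KO 3 was the lowest library for 4 of 17 genes. The genes with the lowest p in each list included Topbp1, a scaffold of origin firing, with a log2 fold change of -0.34 ± 0.18 (SE; edgeR adjusted p = 0.373), and Dbf4, the activator of the Cdc7 kinase, with -0.41 ± 0.23 (adjusted p = 0.378). In the fork list they were Rfc1, the large clamp loader subunit, with -0.36 ± 0.17 (edgeR adjusted p = 0.353), and Brca1, a repair protein, with -1.02 ± 0.31 (adjusted p = 0.342). Brca1 was at 25.6, 21.0 and 22.8 CPM in KO 1, KO 2 and KO 3, against 60.4, 53.5 and 26.4 CPM in WT 1, WT 2 and WT 3, so that KO 3 was not low here and WT 3 was close to the knockout libraries. Without both libraries numbered 3 Brca1 fell by 1.28 on the log2 scale (edgeR adjusted p = 4.95e-05), while Topbp1, Dbf4 and Rfc1 did not pass (adjusted p = 0.213, 0.0661 and 0.0856).

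Dck, the kinase that salvages deoxycytidine, was at 42.3, 45.5 and 31.0 CPM in KO 1, KO 2 and KO 3, against 63.1, 66.2 and 53.5 CPM in WT 1, WT 2 and WT 3. Nme2, a nucleoside diphosphate kinase whose reads may be shared with the neighbouring Nme1, was at 152, 160.3 and 150 CPM in KO 1, KO 2 and KO 3, against 82.7, 101 and 132 CPM in WT 1, WT 2 and WT 3. The 2 genes had opposite signs, each without overlap, and neither passed with all 6 libraries (edgeR adjusted p = 0.342 each). The histone chaperones Asf1a and Asf1b also differed in sign, with log2 fold changes of 0.48 ± 0.20 and -0.69 ± 0.26 (SE; edgeR adjusted p = 0.346 and 0.342). Without WT 3, and also without both libraries numbered 3, these 4 genes passed, Nme2 and Asf1a higher and Dck and Asf1b lower in knockout.

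Control genes of the G1 to S step were mixed. The 30 E2F and G1/S control genes summed to 3253, 3137 and 2748 CPM in KO 1, KO 2 and KO 3, against 4275, 4289 and 3243 CPM in WT 1, WT 2 and WT 3. That sum is carried by a few abundant genes, Ccnd2, Ccnd3 and Cdkn1a among them, and of the 29 tested genes 12 had a positive and 17 a negative log2 fold change. Without both libraries numbered 3, 9 of the 29 rose and 15 fell, where 22.7% of all genes rose and 22.7% fell. Cdk4, the kinase of D-type cyclins, named after its values were seen, was at 401, 406 and 295 CPM in KO 1, KO 2 and KO 3, against 268, 268 and 395 CPM in WT 1, WT 2 and WT 3. KO 1, KO 2 and WT 3 were its high libraries, as in the MCM genes, but KO 3 lay above WT 1 and WT 2. Within this list E2f2, an activator E2F, was at 24.3, 20.9 and 19.5 CPM in KO 1, KO 2 and KO 3, against 48.3, 48.8 and 28.8 CPM in WT 1, WT 2 and WT 3. Its log2 fold change was -0.96 ± 0.24 (SE), called by DESeq2 (adjusted p = 0.0289) but not by edgeR (adjusted p = 0.342). Tfdp2, a dimer partner of E2F proteins, likewise had no overlap and was called by DESeq2 (adjusted p = 0.0325) and not by edgeR (adjusted p = 0.342). Without both libraries numbered 3, E2f2 fell by 1.09 and Tfdp2 by 0.65 on the log2 scale (edgeR adjusted p = 8.69e-05 and 0.00427).

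The 20 genes of G2 and mitosis summed to 1804, 1725 and 658 CPM in KO 1, KO 2 and KO 3, against 2963, 3103 and 1945 CPM in WT 1, WT 2 and WT 3. All 3 knockout sums lay below the wild-type ones, and 13 of the 20 genes were below in every knockout library, against 9.22% of all tested genes. The median log2 fold change of the 20 was -0.89, against -0.09 for the 37 replication genes, and none of the 20 passed edgeR with all 6 libraries. Mki67, the antigen used to count cycling cells, was at 102, 102 and 45.7 CPM in KO 1, KO 2 and KO 3, against 189, 188 and 118 CPM in WT 1, WT 2 and WT 3. Tpx2, a spindle assembly factor, was at 102, 92.5 and 50.0 CPM in KO 1, KO 2 and KO 3, against 239.7, 235 and 112 CPM in WT 1, WT 2 and WT 3. Kif23, a kinesin of cytokinesis, was at 45.9, 43.4 and 24.2 CPM in KO 1, KO 2 and KO 3, against 75.5, 75.9 and 55.3 CPM in WT 1, WT 2 and WT 3. Without WT 3, 8 of the 20 fell and none rose, where 16.1% of all genes fell, and without both libraries numbered 3 all 20 fell, where 22.7% of all genes fell.

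**Figure D4:**
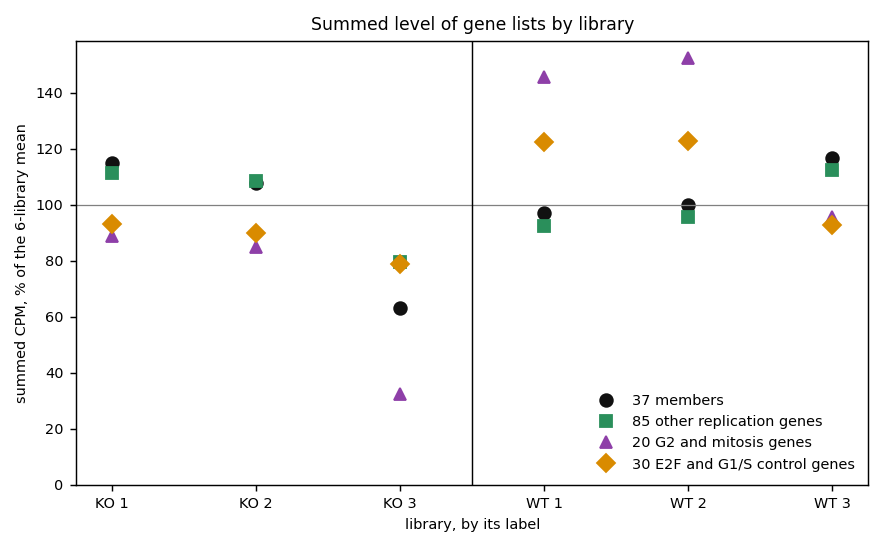
Summed CPM per library as a percentage of the mean of the 6 libraries, knockout left of wild type, for the 37 replication genes, 85 other replication genes, 20 genes of G2 and mitosis and 30 E2F and G1/S control genes. The replication sums are highest in WT 3, KO 1 and KO 2 and the mitotic sums in WT 1 and WT 2, while KO 3 is the lowest library in all 4.

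The replication and the mitotic genes were thus both low in KO 3 and differed in WT 3. KO 3 held a median of 55.2% of the KO 1 and KO 2 mean for the 37 replication genes and 36.8% for the 20 mitotic genes, from Plk1 at 18.9% to Kif23 at 54.1%. WT 3 held a median of 124% of the WT 1 and WT 2 mean for the 37 genes, but 64.9% for the mitotic genes, all 20 of which were under 100%. Of the 37 genes, Rrm2 (73.1%), Clspn (75.6%), Tk1 (77.3%), E2f8 (95.9%) and Dscc1 (98.8%) lay below 100% in this second ratio, and Ung (264%) and Hells (193%) lay highest.

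**Figure D5:**
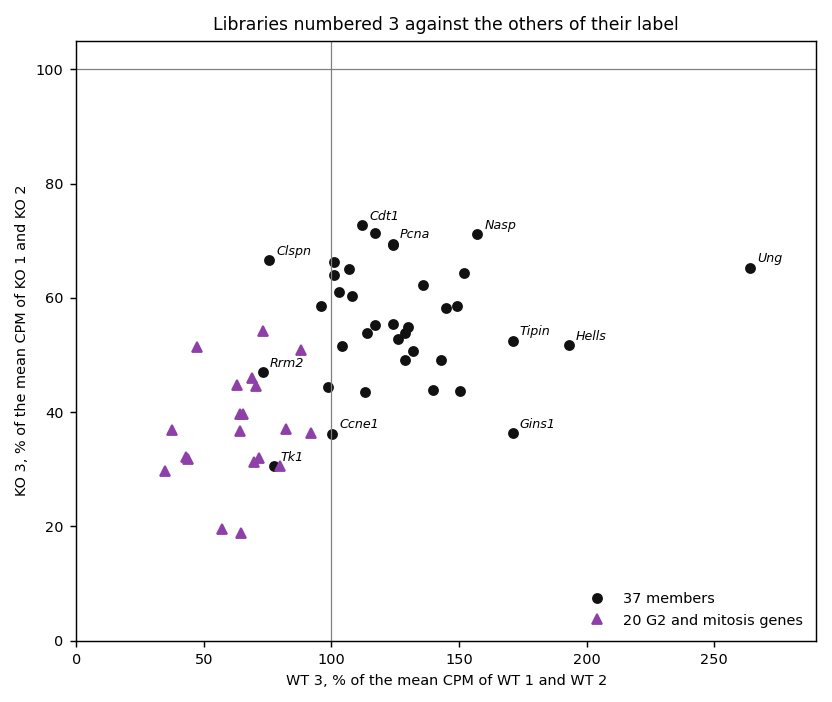
Each point is 1 gene, with WT 3 as a percentage of the mean of WT 1 and WT 2 on the horizontal axis and KO 3 as a percentage of the mean of KO 1 and KO 2 on the vertical axis, for the 37 replication genes and the 20 genes of G2 and mitosis. All points lie under 100% vertically; most replication genes lie right of 100% and all mitotic genes left of it, with Rrm2, Clspn, Tk1, E2f8 and Dscc1 among the 37 also left of it.

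Some values carry a limit from counting. The deposited counts of 24 of the 37 genes were not whole within 0.1 in every library. Some of their reads may have been shared with other features, but no source used here gives the origin of the fractions. For 11 genes another gene of the table overlaps the locus, among them Mcm7 with Cops6, Cdc45 with Ufd1, Rfc2 with Lat2, Fen1 with Tmem258, Tk1 with Afmid and Ccne2 with Ints8, and no source used here says whether counting used strand.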

How the data were processed

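Messenger RNA was measured in 6 libraries of sorted lung ILC2s, 3 per genotype. Estimated counts for each gene and a normalized signal were deposited by the authors. The mm10 build, Partek, STAR and CASAVA 1.8.2 are listed in the submitters' processing notes without their roles. The deposited signal, given for 16322 genes, is 1 added to the estimated count and the sum divided by a constant of the library; it was not tested here. Of the deposited estimated counts, 47.1% to 48.5% per library were whole (within 1e-06), the rest holding fractions that may come from reads shared among features.

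After rounding, the counts were fitted with edgeR 4.0.16 in R 4.3.3 (filterByExpr, TMM, robust glmQLFit, glmQLFTest), with no covariate and Benjamini-Hochberg adjustment at 0.05. CPM are rounded counts over TMM library sizes. CPM per kb divide by the union of protein-coding exons in GENCODE vM21, whose positions matched those of all 37 genes. The standard error is the log2 fold change divided by the square root of F. Intervals and floors cover counting error only. The fit was tested on simulated data.

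The 37 genes, the lists and the alternatives, the fit without both libraries numbered 3 included, were chosen with earlier results of these data known. Values per library are given for the 6 highest and 6 lowest fold changes and for the 2 most abundant genes of each role per kb, and in other lists the 2 genes with the lowest p are named, with Mki67 added. Alternatives were other scalings, other low-count filters, DESeq2 1.42.0, limma-voom (limma 3.58.1), the replicate number as a block, and libraries left out. Replicate numbers come from the sample titles, and no shared deviation of same-numbered libraries was seen across genes.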

Additional observations from a re-analysis of the deposited data

How the results depend on the processing

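No scaling, filter or tool gave a call among the 37 genes with all 6 libraries. DESeq2 raised the count over all tested genes to 323, and the count over the fixed pathway lists to 4, namely Cdkn2d, E2f2, Tfdp2 and Tpx2, all lower in knockout. Leaving out libraries, singly or both numbered 3, gave 0 to 6505 called genes in all (4991 without WT 3), 0 to 18 among the 37 and 0 to 81 in the pathway lists (41 without WT 3).

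Fold changes near 0 changed sign with the scaling or filter, the largest such value being 0.04 in size. On the log2 scale Mcm5 was -0.00043 with DESeq2 size factors and with DESeq2, -0.01 with upper-quartile scaling, -0.02 with either filter, and -0.04 with limma-voom and with the block. Gins2 was -0.01 with DESeq2 size factors and with DESeq2, -0.02 with upper-quartile scaling, -0.0001 with library totals, -0.03 with either filter, and -0.04 with limma-voom and with the block. Prim1 was -0.0016 without a filter, -0.0027 at 2 CPM in 3 libraries, -0.04 with limma-voom and -0.02 with the block.

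With libraries left out, the log2 fold changes of 28 genes changed sign in at least 1 fit and ranged as follows: Mcm2 -0.16 to 0.35, Mcm3 -0.11 to 0.46, Mcm4 -0.28 to 0.26, Mcm5 -0.16 to 0.43, Mcm6 -0.1 to 0.47, Mcm7 -0.27 to 0.27, Cdc6 -0.39 to 0.14, Cdt1 -0.15 to 0.16, Dtl -0.36 to 0.21, Cdc45 -0.34 to 0.3, Gins1 -0.43 to 0.52, Gins2 -0.14 to 0.33, Pola1 -0.34 to 0.05, Prim1 -0.17 to 0.56, Pcna -0.05 to 0.35, Rfc2 -0.2 to 0.13, Dscc1 -0.4 to 0.16, Tipin -0.02 to 0.71, Blm -0.15 to 0.22, Exo1 -0.0004 to 0.64, Ung -0.22 to 0.9, Tyms -0.05 to 0.6, Chaf1b -0.56 to 0.01, Slbp -0.17 to 0.17, Uhrf1 -0.51 to 0.01, Hells -0.11 to 0.76, Ccne2 -0.55 to 0.23 and E2f1 -0.24 to 0.13. The fit without both libraries numbered 3 gave the upper end for most of them.

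No pairing of samples by replicate number was seen: the deviations of same-numbered libraries from their group means correlated at r = -0.0107, 0.0221 and 0.0203 across genes. These values cannot exclude pairing, because the distance of WT 3 from WT 1 and WT 2 (r = 0.946 and 0.948, against 0.991 between WT 1 and WT 2) dominates the wild-type deviations. With the replicate number as a block, 0 of the 37 genes and 0 of all tested genes were called by edgeR, as without it. The cause of the changes on leaving out libraries was not tested. Counting error is largest, relative to the level, for Gins1, Ung, Dscc1 and Clspn, the scarcest of the 37 in CPM. The standard error with all 6 libraries did not follow abundance alone: it was 0.23 for Clspn and 0.32 for the abundant Rrm2.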
